A study of Mus musculus with 2 samples.

Results

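The proteasome genes of the mouse stomach were compared between a single array labelled Agr2 wild-type and a single array labelled Agr2 null. Members were all probes of the bead array whose gene symbol began with Psm, a letter from a to g and a digit. The rule found 44 of the 16905 genes measured, on 65 of 25697 probes. Psmc3ip, a meiotic recombination factor that shares the prefix, is no proteasome subunit, and the other 43 genes are called proteasome genes here. Both samples were total RNA from the glandular stomach of female mice aged 26 weeks, per the series' design text and labels, 1 Agr2 wild-type and 1 Agr2 null. The sources used here name neither the null allele nor the strain. Agr2 encodes a protein of the endoplasmic reticulum in the disulfide isomerase family. A single array per group leaves every difference without a replicate check, so no p-value or error is given, and precision is limited by the number of arrays. In whole tissue, fewer cells of a type and less RNA per cell cannot be told apart.

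The proteasome is the protease that degrades proteins tagged with ubiquitin. Its barrel, the 20S core, stacks rings of alpha subunits, which gate the entrance, on rings of beta subunits, some of which carry the proteolytic sites. A 19S cap sits on the barrel: its base of ATPases unfolds the substrate, and its lid removes the ubiquitin chain. Interferon and immune cells bring in the immunoproteasome, in which Psmb8, Psmb9 and Psmb10 take the places of the catalytic subunits Psmb5, Psmb6 and Psmb7 and the Psme1 and Psme2 activator can replace the cap, a form known for making peptides for class I antigen presentation. The transcription factor Nfe2l1 raises constitutive subunit genes together when proteasome activity is low.

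Agr2 itself went against its label. Its probe read 972 on the wild-type-labelled array and 3406 on the null-labelled array, 3.13-fold higher on the latter. Where this probe lies relative to the altered part of the null allele is not stated in the labels, and a probe outside that part would check nothing. Xist, which coats the silenced X chromosome, read 186 and 1774, and Y-linked Eif2s3y read 2096 and 134, although both samples are labelled female. Arrays are therefore named by their labels, as the wild-type-labelled and the null-labelled array. The sex-linked genes differ in step with the labels, so sex and genotype cannot be told apart in any difference below. Pairs of signals are given in that order, and every difference is the null-labelled array minus the wild-type-labelled array. Mean probe signal was 811 and 925. A gene was called detected above about the 99th percentile of background probes, a signal of 200.4 on the wild-type-labelled array and 227 on the null-labelled array, and 9353 genes were detected on at least 1 array. Of the gastric markers, Gkn1, Gkn2 and Tff2 were bright on both arrays, whereas the parietal cell proton pump gene Atp4a read 43340.1 and 265. Other mucous and chief cell markers were not level. Of 3 surface mucous markers 1 was at least 2-fold lower, Muc5ac at 39881 and 2669. Of 3 neck cell markers 2 were at least 2-fold higher, Muc6 and Gkn3 (2368 and 47368). Of 4 chief cell markers 1 was lower by that margin, Chia1 (48795 and 1352), and 1 higher, Bhlha15 (774 and 2999).

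Markers of other cell types moved strongly between the same arrays. Over all detected genes 17.1% were at least 2-fold lower and 13.1% at least 2-fold higher. Of the counts below, the smooth muscle count alone changed with dim genes at their bound. Smooth muscle markers were at least 2-fold lower for 6 of 6 genes (5 with Cnn1, detected on 1 array, at its bound), with summed signals of 98011 and 26584. Squamous markers were lower for 5 of 5 (132241 and 2831), parietal markers for 4 of 4 detected (104091 and 1265) and pancreatic acinar markers for 5 of 6 (21113 and 7245). Neutrophil markers were higher for 4 of 5 detected (3358 and 30780.5) and plasma cell markers for 3 of 4 (12605 and 13107, most of it Xbp1, which epithelium also expresses). Macrophage markers were lower for 2 of 3 detected (1709.7 and 1156). Of 5 T cell markers Cd3e alone was detected, and none of 3 B cell markers was. Slc26a7 of the parietal, Cxcr2 of the neutrophil and Cd68 of the macrophage markers were also detected on neither array. The part of these cell types in the proteasome differences below was not tested.

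A pair of promoter sets shows the subunits that exchange places in the core. The 250 bases before the annotated transcript start are given for Psmb8 and Psmb9 and for the constitutive subunits they replace, Psmb5 and Psmb6, from RefSeq on build GRCm38.p6, which served for sequences and gene names only. Capitals mark matches, on either strand, to the letters GAAANNGAA (core of the interferon-stimulated response element, ISRE), TTCNNNGAA (the interferon gamma activated site, GAS), TGACNNNGC (the antioxidant response element, ARE, bound by Nfe2l1 and Nfe2l2) or CCAAT. Matches to ISRE and GAS letters can overlap.
Psmb8 (chr17:34197945-34198194, plus strand): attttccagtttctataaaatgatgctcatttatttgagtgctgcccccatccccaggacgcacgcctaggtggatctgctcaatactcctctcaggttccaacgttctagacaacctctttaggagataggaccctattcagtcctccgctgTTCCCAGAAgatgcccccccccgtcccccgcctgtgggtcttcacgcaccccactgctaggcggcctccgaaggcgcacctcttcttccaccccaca
Psmb5 (chr14:54617996-54618245, minus strand): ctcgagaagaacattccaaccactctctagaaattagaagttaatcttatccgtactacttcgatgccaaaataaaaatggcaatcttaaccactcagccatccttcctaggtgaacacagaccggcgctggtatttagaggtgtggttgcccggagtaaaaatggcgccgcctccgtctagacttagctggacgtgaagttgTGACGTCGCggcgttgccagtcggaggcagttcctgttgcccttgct
Psmb9 (chr17:34187331-34187580, minus strand): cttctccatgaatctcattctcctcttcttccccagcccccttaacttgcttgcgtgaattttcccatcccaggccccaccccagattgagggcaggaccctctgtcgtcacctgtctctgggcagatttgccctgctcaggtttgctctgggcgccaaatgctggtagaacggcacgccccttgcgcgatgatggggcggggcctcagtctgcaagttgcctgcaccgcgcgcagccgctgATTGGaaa
Psmb6 (chr11:70525107-70525356, plus strand): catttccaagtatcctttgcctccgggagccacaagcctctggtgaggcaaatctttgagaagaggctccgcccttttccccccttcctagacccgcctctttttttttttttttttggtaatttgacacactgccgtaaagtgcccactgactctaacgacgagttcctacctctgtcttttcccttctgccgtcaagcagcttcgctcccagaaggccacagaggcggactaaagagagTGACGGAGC
Psmb8 held 1 GAS match, TTCCCAGAA. Psmb5 and Psmb6 each held 1 ARE match, TGACGTCGC and TGACGGAGC, and Psmb9 held 1 reversed CCAAT box. A match is a description of letters, and its absence says only that they are not in this window.

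The RefSeq table held windows for 37 of the 43 proteasome genes, 40 windows of 300 bases in all that run from 250 bases before the start to 50 after it. ARE letters were in 15.0% of the proteasome windows and in 12.4% of all 32851 windows in the table. ISRE letters were in 15.0% against 8.56%, in 6 windows, those of Psmb4, Psmd4, Psmc2, Psmd9, Psmb3 and Psme1. GAS letters were in 2 of 40, those of Psmd2 and Psmb8, against 8.30% of all windows, and CCAAT in 32.5% against 37.4%. Among the 5 immunoproteasome genes (Psmb8, Psmb9, Psmb10, Psme1 and Psme2), Psme1 held the ISRE and Psmb8 the GAS, and none held the ARE. Of 25 constitutive genes 4 held the ARE (Psmb6, Psmd12, Psmc6 and Psmb5), in 14.8% of their windows against 12.4% of all. ISRE letters were in 16.7% of the immunoproteasome windows and 14.8% of the constitutive windows. These counts are too small to set the groups apart.

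As a whole the proteasome genes stayed close to level between arrays that differed widely elsewhere. Of the 43, 39 were detected, 37 of them on both arrays, and 38 of the 39 lay within 2-fold. Over all detected genes 69.8% did, and over the brightest 25% of genes detected on both arrays, a class in which many proteasome genes fall, 82.1% did. Within 1.5-fold lay 31 of the 39, against 49.5% of all detected genes and 61.7% of the brightest. Small differences ran mostly upward: 29 of 39 were above 0 (background 50.1%), with a median log2 difference of 0.21 and quartiles of -0.03 and 0.46, against a median of 0.00 and quartiles of -0.62 and 0.57 over all detected genes. At least 1.5-fold higher were 6 (background 24.4%) and at least 1.5-fold lower 2 (background 26.2%), and the counts at 2-fold were 1 higher (background 13.1%) and none lower (background 17.1%). No test of these counts was made, since the direction of all members comes from the same pair of arrays. The gene past 2-fold was Psmd5, which was below background on the wild-type-labelled array, and at its bound none was.

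**Figure D1:**
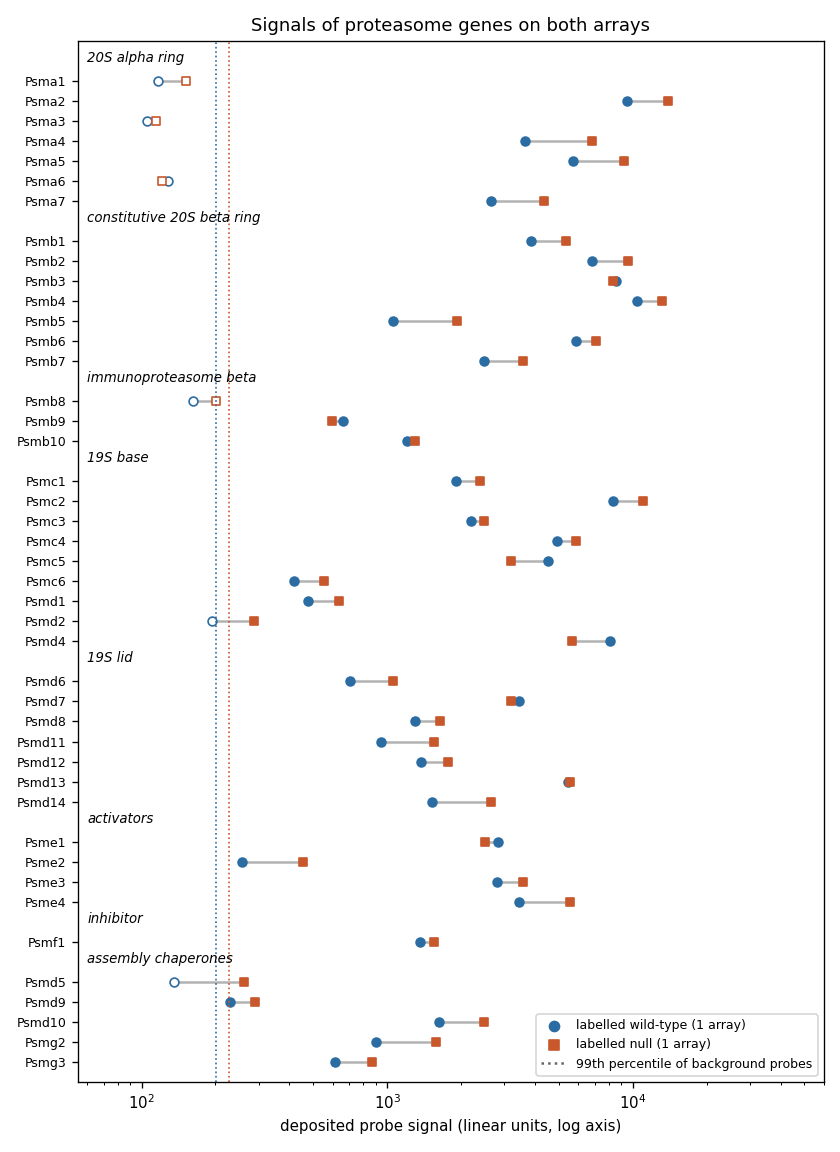
Deposited signal of the brightest probe of each of the 43 proteasome genes on a log axis, circles for the wild-type-labelled array and squares for the null-labelled array, with open symbols below background and dotted lines at the 99th percentile of background probes (200.4 and 227). Most symbol pairs lie close together and far above the lines, while Psma1, Psma3, Psma6 and Psmb8 lie below them on both arrays.

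The alpha ring was the subunit ring with the highest median, 0.49. The 4 of its 7 genes that were detected were all higher on the null-labelled array (background 50.1%). Counts in this and the other parts below are too small to set apart from the background. Psma2 read 9472 on the wild-type-labelled array and 13949 on the null-labelled array, a normalized log2 difference of 0.42. Psma4 read 3656 and 6852, a difference of 0.70 or 1.62-fold. Psma5 read 5707 and 9222 (0.51), and Psma7 read 2649 and 4358 (0.46) with a second probe at 0.32. The 4 values lay between 0.42 and 0.70, 3 of them below the upper quartile of all detected genes (0.57) and Psma4 above it. Psma1, Psma3 and Psma6 are equally obligatory members of the ring, but their single probes read 117 and 152, 105 and 115, and 128 and 121. These signals were not well above background on either array, so the data give no level for them.

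In the constitutive beta ring all 7 genes were detected on both arrays, 6 of them were above 0 (background 50.1%) and the median was 0.25. The catalytic subunit gene Psmb5, which encodes the chymotrypsin-like site, had the largest difference of the ring, 1060.3 and 1927, 1.56-fold higher (log2 0.65). Psmb6, the caspase-like site, read 5877 and 7100, a difference of 0.08 that was not above 0 under every scaling. Psmb7, the trypsin-like site, had 3 detected probes that did not give 1 direction. Its brightest probe by mean normalized value read 2469.8 and 3584 (0.27), another read 1354 and 3481 (1.16), and the last read 2805 and 2350.2 (-0.55). Among the non-catalytic subunits, Psmb1 read 3837 and 5368 (0.25), Psmb2 6845 and 9579 (0.31, with a second detected probe at 0.62) and Psmb4 10401 and 13113 (0.19). Psmb3 was the exception of the ring at 8564 and 8347, a difference of -0.22.

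The 19S base was near level at the median, 0.06, but held the lowest differences among the detected proteasome genes, those of Psmc5 and Psmd4. Of its 9 genes 6 were above 0 (background 50.1%) and 3 below. Most ATPase genes of the ring that unfolds substrates were within a small range. Psmc1 read 1909 and 2399 (0.06), Psmc3 2187 and 2471 (-0.09), Psmc4 4932 and 5875 (0.02) and Psmc6 418 and 555 (0.16). The signs of Psmc1 and Psmc4 were not the same under every setting. Psmc2 read 8318 and 11040 (0.26). The ATPase gene Psmc5 read 4499 and 3194 by its brighter probe, 1.71-fold lower (-0.77), and 1628 and 2603 by the other, which gave 0.44, so its direction depended on the probe. Psmd4, the ubiquitin receptor of the base, was read by 1 probe at 8052 and 5682, 1.66-fold lower (-0.73), and kept that sign under every setting tried. The scaffold subunit genes Psmd1 and Psmd2 were dim: Psmd1 read 478 and 634 (0.13), and Psmd2, at 194 below background on the wild-type-labelled array and 288 on the other, was at least 1.25-fold higher by the bound without background correction (1.55-fold with it, a value that depends on the correction).

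The lid had a median of 0.10 over its 7 measured genes, all within 1.5-fold (background 49.5%), 5 above 0 (background 50.1%) and 2 below. Psmd14, the deubiquitinase that clips the chain from the substrate, had the largest difference in the lid at 1530 and 2652, 1.47-fold higher (0.56). Its non-catalytic partner gene Psmd7 read 3435 and 3207 by the brighter probe (-0.38) and 524 and 1477 by the other (1.40), opposite directions and the widest gap between probes of 1 proteasome gene. Among the structural subunits, Psmd11 read 943 and 1545 (0.48, second probe 0.34), Psmd6 706 and 1052 (0.32, second probe -0.29), Psmd12 1377 and 1772 (0.10, second probe -0.16) and Psmd8 1298 and 1641 (0.08). Psmd13 read 5444 and 5566, a difference of -0.18 after normalization. The direction of Psmd8 and Psmd12 was not the same under every setting. The lid subunit Psmd3 was not among the symbols found by the rule and is not analysed here.

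**Figure D2:**
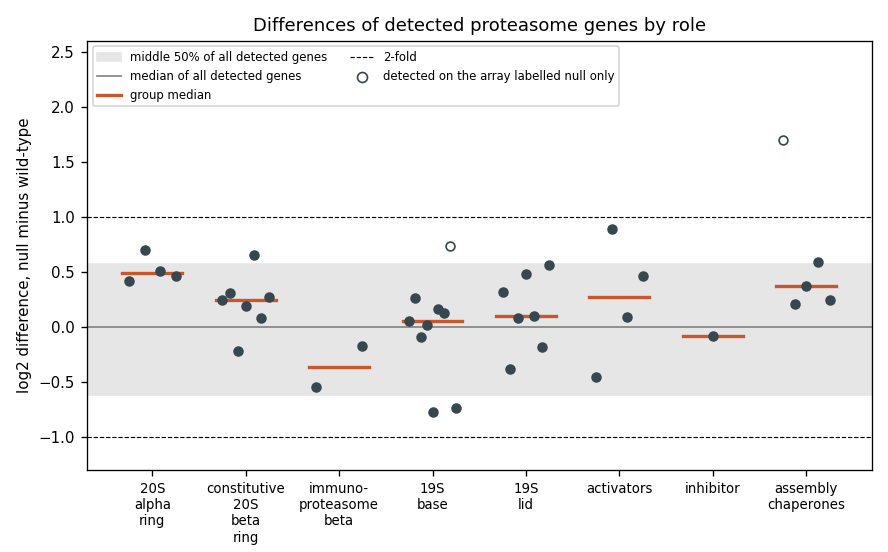
Log2 difference (null-labelled array minus wild-type-labelled array) of each detected proteasome gene by role, with the group median as a bar, the interquartile range and median of all detected genes as a grey band and line, and dashed lines at 2-fold. The alpha ring lies wholly above 0 with a median of 0.49, the 2 detected immunoproteasome beta genes lie below 0, and Psmd5, open because it was detected on the null-labelled array only, is the point past 2-fold.

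The activators did not move as a block. Psme1 and Psme2 encode the partners of 1 ring, the PA28 activator induced by interferon gamma, yet their probes went opposite ways. Psme1 read 2822 and 2509 (-0.45) with a second probe at -0.03, and Psme2 read 257 and 454, 1.85-fold higher (0.89). The Psme2 signal on the wild-type-labelled array lay little above the 99th percentile of background probes there (200.4), and a related gene, Psme2b, is annotated in mouse and could share its signal, so its value is uncertain. Psme3, the nuclear PA28 gamma, read 2798 and 3588 (0.09). Psme4, which encodes the large single-chain activator PA200, read 3439 and 5556 (0.46), with a dim second probe at 1.24 that was below background on the wild-type-labelled array. Psmf1, the PI31 inhibitor, read 1361 and 1555, a difference of -0.08 that changed sign between settings.

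Assembly factors were above 0 for 5 of 5 detected genes (background 50.1%), with a median of 0.37. Psmg2, which helps build the alpha ring, read 902 and 1586, 1.51-fold higher (0.59), and its second probe gave 0.65. Psmg3, another alpha ring chaperone, read 611 and 868 (0.25). The base chaperones Psmd10, Psmd9 and Psmd5 were all higher by different margins. Psmd10, also called gankyrin, read 1619 and 2471 by its brightest probe (0.37), while its dimmer probes gave 0.64 and 1.94. Psmd9 read 230 and 289 (0.21), close to background. Psmd5 read 135 and 261, at least 1.14-fold higher by the bound without background correction (1.30-fold with it), where the fitted 3.25-fold rests on a signal below background. Psmg1, on the array under its older symbol Dscr2 and so outside the rule, read 439.9 and 722 (0.54). Psmc3ip read 237 and 238, a normalized difference of -0.41 near background.

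Probes of the same gene set a yardstick for these differences, since replicates are lacking. Among 12 proteasome genes with several probes detected on both arrays, the gap between the highest and lowest probe had a median of 0.51 on the log2 scale, and in 6 of the 12 the probes differed in sign. Over all 1559 such genes on the array the median gap was 0.45, and 31.4% differed in sign. The pooled SD between probes of a gene was 0.64 for proteasome genes and 0.53 for all. Apart from Psmd2, Psmd5, Psme2, Psma4, Psmc5, Psmd4 and Psmb5, every detected proteasome gene differed by less than 0.64 in size, so most single-gene differences were no larger than the spread between probes of 1 gene. Probes of a gene can read different transcripts, and this spread is not the spread between animals. Counted by probe, 40 of 54 detected proteasome probes were above 0 (74.1%), 13 past 1.5-fold in the higher direction (24.1%) and 5 past 2-fold (9.26%), with a median of 0.27. Over all 12049 detected probes these shares were 53.3%, 28.2% and 16.4%, and the median was 0.07.

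**Figure D3:**
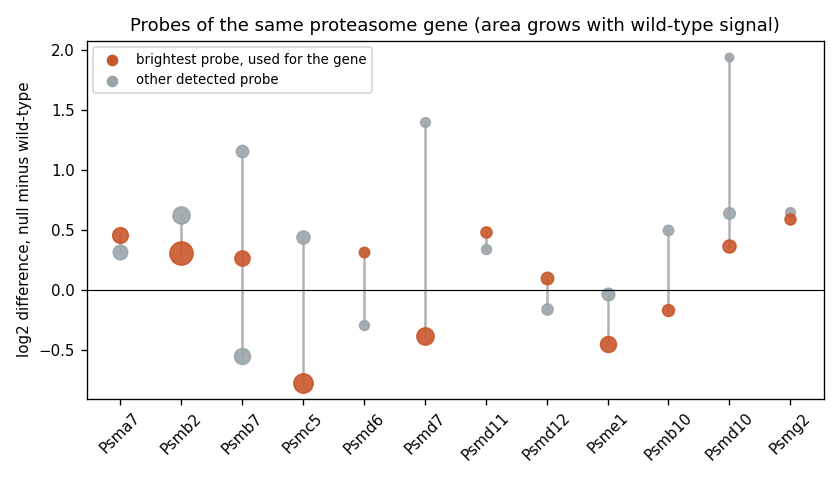
Log2 difference (null-labelled array minus wild-type-labelled array) of each probe detected on both arrays, for the 12 proteasome genes with several such probes. Psmb7, Psmc5, Psmd6, Psmd7, Psmd12 and Psmb10 have probes on either side of 0, and Psma7, Psmd11 and Psmg2 have probes that lie within 0.14 of each other.

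The immunoproteasome genes were compared with the constitutive subunits. Psmb9 read 659 and 595, a difference of -0.54 or 1.46-fold lower. Psmb10 read 1202 and 1295 by its brighter probe (-0.17) and 729 and 1219 by the other (0.50). Psmb8 read 162 and 201, not well above background on either array, so no fold is given for it. With Psme1 (-0.45) and Psme2 (0.89), 3 of 4 detected immunoproteasome genes were below 0 and 1 was above 0 (background 50.1% above 0). Their median was -0.31. With the mean over all probes of each gene their median was -0.04, near level, and Psmb10 was above 0 at 0.17. Of the 27 detected constitutive genes, 21 were above 0 (background 50.1%) and their median was 0.19. The immunoproteasome median minus the constitutive median was -0.50 on the log2 scale. The difference of medians was -0.22 with the mean over all probes of each gene and -0.67 without the genes whose probes differed in sign, an alternative chosen after seeing the data.

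The exchange partners Psmb9 and Psmb6 gave the same order, and Psmb10 and Psmb7 did by the probes used for the genes. Psmb8 was detected on neither array, so its pair with Psmb5 is not given. The difference between arrays of Psmb9 minus that of Psmb6 was -0.62 (-0.54 against 0.08), and that of Psmb10 minus Psmb7 was -0.44 (-0.17 against 0.27). The former gap ranged from -0.62 to -0.42 over 6 settings. The latter was -0.13 with the mean over probes. The order of Psmb10 and Psmb7 depended on the probe. Psmb10 probes gave -0.17 and 0.50, and Psmb7 probes gave 0.27, 1.16 and -0.55. Among other interferon-inducible genes on the fixed list, 12 of 20 detected were lower by 2-fold or more and 1 was higher, against backgrounds of 17.1% and 13.1%, and these counts became 9 and 0 with dim genes at their bound. Their median was -1.24, or -0.60 at the bound. Irf1, a transcription factor induced by interferon gamma, was within 2-fold at -0.14, but other list members differed more. Gbp2 (-1.19), Gbp3 (-1.36) and Igtp (-1.29), detected on both arrays, were past 2-fold lower. Cxcl9, below background on the wild-type-labelled array, was the 1 counted as higher, at least 1.40-fold without background correction (1.88-fold with it). The list was lowest for Oas2 (1510.0 and 249, 13.5-fold lower), Usp18 (1545 and 349.8, 7.78-fold) and Rsad2 (1142 and 288, 7.59-fold), and each detected immunoproteasome gene differed by less than these.

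**Figure D4:**
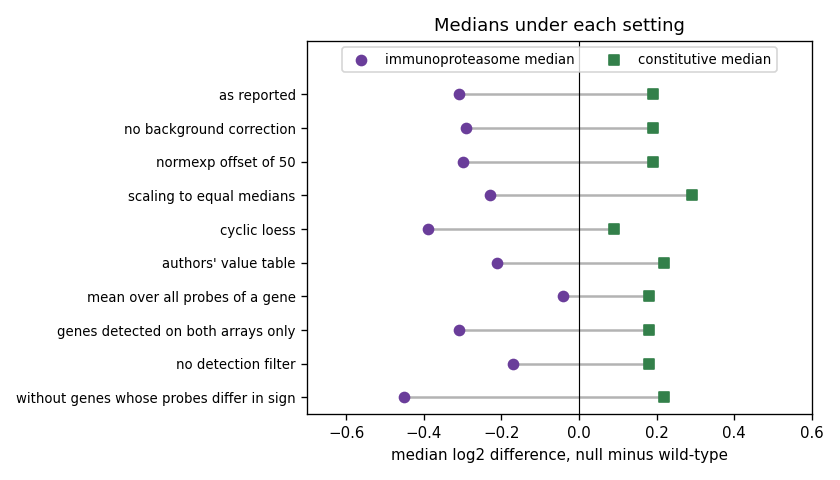
Median log2 difference (null-labelled array minus wild-type-labelled array) of the immunoproteasome genes (circles) and the constitutive genes (squares) as reported and under 9 other settings. The immunoproteasome median lies below 0 and the constitutive median above 0 in each row, and the gap is narrowest, -0.22, with the mean over all probes of a gene.

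Class I antigen processing genes, which use immunoproteasome products, had a median of 0.72 over 7 detected. Of these 5 were above 0 (background 50.1%), 2 were at least 2-fold higher (background 13.1%) and none was at least 2-fold lower (background 17.1%), counts too small to set apart from the background. The peptide transporter genes Tap1 and Tap2 read 223 and 278 (0.19) and 554 and 647 (-0.10), and B2m, the class I light chain, 11566 and 12408 (-0.08). H2-K1, also on the list, was higher at 288 and 485 (0.72, 1.65-fold). The members past 2-fold were the chaperone gene Calr, 265 and 1065 (4.98-fold), and Tapbp, the peptide loading factor, which at 146 was below background on the wild-type-labelled array and at 304 was at least 1.32-fold higher on the other without background correction (1.70-fold with it). Calr and Pdia3 (0.99) are also general folding factors of the endoplasmic reticulum.

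Genes that work beside the proteasome were given from lists named without reference to their direction, although with earlier results of these data known. Of 8 detected proteasome partners outside the symbol rule, none differed by 2-fold (backgrounds 13.1% higher and 17.1% lower), and the median was 0.28. Sem1, a small lid subunit, read 10143 and 14200.0 (0.36), and Pomp, the maturation factor of the core, read 6175 and 8055 (0.20). Among 8 detected regulators of proteasome genes the median was 0.27. Nfe2l1, the regulator described above, was on the lower side at 4686 and 3971 (-0.49). Its relatives were on the higher side: Nfe2l2 read 591 and 1096 (0.70), and Nfe2l3 read 303 and 875, 3.13-fold higher. Maff, a small partner factor, read 172 (below background) and 274, at least 1.19-fold higher without background correction (1.42-fold with it).

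Genes that tag substrates and deliver them to the protease were described from 3 lists. Of 3 detected ubiquitin and activating enzyme genes, 2 were at least 2-fold higher (background 13.1%): Uba1, the main enzyme that activates ubiquitin, read 4087 and 9723 (2.10-fold), and Rps27a, a ubiquitin and ribosomal protein fusion gene, 1168 and 2775 (2.08-fold). Among genes of degradation from the endoplasmic reticulum, 11 of 11 detected were above 0 (background 50.1%), and the median was 0.73, or 0.60 at the bound. Past 2-fold were 2 (1 at the bound), a share near the background of 13.1%. At least 1.5-fold higher were 7 (background 24.4%), among them Edem1, which falls short of that margin at its bound, and none was 1.5-fold lower (background 26.2%). Edem2, which marks misfolded glycoproteins, read 5363 and 13899 (2.32-fold), and Edem1 read 144 (below background) and 282, at least 1.22-fold higher without background correction (1.49-fold with it). Vcp, the segregase that pulls such proteins toward the proteasome, was near level at 11758 and 15193 (0.20). Of 6 detected shuttle and segregase genes, 1 was past 2-fold (background 17.1% lower), the shuttle Ubqln1 at 5889.5 and 3496, 2.02-fold lower, and the list median was 0.23.

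**Figure D5:**
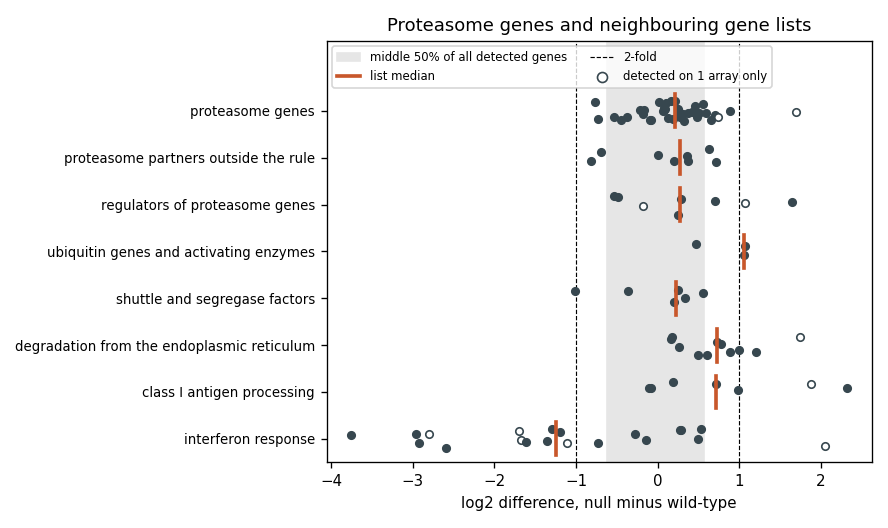
Log2 difference (null-labelled array minus wild-type-labelled array) of each detected gene of the proteasome and of 7 neighbouring lists, with list medians as bars, the interquartile range of all detected genes as a grey band and dashed lines at 2-fold. The proteasome genes cluster around their median of 0.21, while the list of degradation from the endoplasmic reticulum lies wholly above 0 and 12 of the 20 detected interferon response genes lie below the lower 2-fold line.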

How the data were processed

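Biotin-labelled RNA of 1 stomach per group was read on Illumina MouseRef-8 v2 bead arrays, per the labels and the series' design text. The authors deposited linear probe intensity values as not normalized, from 70.7 to 57640.4; bead summary and background subtraction are not given in the sources used here. Their value table holds the same intensities times 1 factor per array (0.960 and 0.842), found from the values. Without control probes, 1314 olfactory and vomeronasal receptor probes served as background. Signals were corrected with limma 3.58.1 (normexp, offset 16) in R 4.3.3, quantile normalized and put on the log2 scale. A probe was detected if under 0.01 of background probes were as bright. Each gene took its brightest probe. Genes outside the proteasome set are given by that probe alone, although some have others (4 probes each for Cul4a, Ubqln1 and Edem2, 3 for Usp2). A gene detected on 1 array has a bound, against the higher of its dim value and the lowest detected value; counts at the bound use the corrected scale, and bounds without background correction were added after the data were seen. Genes were counted at 1.5-fold and 2-fold, with no test. The steps were tested on simulated data. Symbols were updated through RefSeq GRCm38.p6. Named genes were all members, Agr2, and from each list the members at least 2-fold different or else the 2 brightest, not all of which are reported. Irf1, Nfe2l1, Nfe2l2, Tap1, Tap2, B2m, H2-K1, Pdia3, Vcp, Psmg1, Xist and Eif2s3y were added. Members and lists were chosen with earlier results of these data known. The values of 1 list member are not reported here.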

Additional observations from a re-analysis of the deposited data

How the results depend on the processing

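No paired analysis was possible because each group has 1 array, and no array could be left out. Of 39 detected proteasome genes, 31 kept their sign under all 6 alternatives of background, normalization, source and probe, 24 higher and 7 lower. The matching share over all detected genes is not given here. Every alternative uses the same pair of arrays, so the count is no sign of stability particular to these genes. Psmb6, Psmb10, Psmc1, Psmc4, Psmd7, Psmd8, Psmd12 and Psmf1 did not. The probe alternative was the mean over probes. Psmc5, Psmb7 and Psmd6 kept their sign by this count although their single probes differed in sign. The proteasome median ranged from 0.09 (cyclic loess, where the median of all genes was -0.08) to 0.30 (equal medians, where it was 0.10), and 25 to 30 genes were above 0. The 2-fold split of all genes was 1225 higher and 1597 lower as reported and 679 and 1012 without background correction, 799 and 933 with the authors' value table and 806 and 816 over genes detected on both arrays. Proteasome genes at least 2-fold higher numbered 0 without background correction, with the authors' value table, with the mean over probes and over genes detected on both arrays. They numbered 2 with equal medians. Proteasome genes at least 1.5-fold higher numbered 3 without background correction. Proteasome genes at least 1.5-fold lower numbered 1 with the mean over probes and 1 without genes whose probes differed in sign. In each case the cause was not tested, except that Psmd5 leaves the count over genes detected on both arrays. Probes under signals of about 200.4 and 227 give bounds at most.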

Other observations

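Enzymes that attach and remove ubiquitin were counted by symbol, families chosen after the data were seen. Of 21 detected ubiquitin conjugating enzyme genes, 4 were higher and 1 was lower by 2-fold or more (2 and 0 at the bound), against 13.1% higher and 17.1% lower over all detected genes, and their median was 0.26. Ube2c, the mitotic enzyme of the anaphase-promoting complex, read 293 and 892, 3.40-fold higher. Of 27 detected ubiquitin specific protease genes, 4 were higher and 2 lower by that margin (3 and 2 at the bound), the higher count near the same background, and their median was 0.48. Usp2, a protease whose transcript cycles with the circadian clock, read 1151 on the wild-type-labelled array and 169, below background, on the null-labelled array, at least 5.93-fold lower without background correction. Among 6 detected cullin genes, scaffolds of ubiquitin ligases, the median was 0.03, and Cul4a was the member past 2-fold, at 292 and 1338 (5.50-fold higher).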
